A study of Mus musculus with 2 samples.

Results

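The clustered protocadherins are cell-surface adhesion proteins of the cadherin family, encoded by tandem gene arrays. They were described here across 2 total RNA-seq libraries of mouse cerebral cortex. Members were chosen by name, as genes of the alpha, beta and gamma clusters with at least 1 protein-coding transcript. The rule found 58 of the 55536 annotated genes: 14 in the alpha cluster, 22 in the beta cluster and 22 in the gamma cluster. They fall into 12 alpha, 22 beta, 12 gamma A and 7 gamma B genes, called alternates here, and 5 C-type genes (Pcdhac1, Pcdhac2, Pcdhgc3, Pcdhgc4 and Pcdhgc5).

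In the alpha and gamma clusters each gene has its own promoter and its own large first exon, which encodes the extracellular and transmembrane parts, and this exon is spliced to constant exons that encode a cytoplasmic tail common to the whole cluster. Beta genes have no constant exons. Single neurons are known to switch on small, largely random sets of alternates together with more broadly used C-type genes, and the proteins recognise identical partners on other membranes, which gives branches of a neuron a means of telling self from other in processes such as dendritic self-avoidance.

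The source was the left cerebral cortex of B6CASTF1/J females, a cross of C57BL/6J with CAST/EiJ, at an age of 18 to 20 months. Each library was made from 300 ng of total RNA with added spike-in RNAs. The labels give 1 group with biological replicates 1 and 2 and neither a treatment nor a contrast, so no test was possible and every value is a description. Both biosamples carry the same donor entry, so separate animals are not certain, and the spread between the libraries may be technical. Replicate 1 held 32357983 expected counts on genes and replicate 2 held 24798683. A count of 0 allows up to 3 counts, equal to 0.0927 and 0.121 CPM (counts scaled to library size), for counting error only. The cortical label was checked against cell type markers. All 4 general neuronal, 3 excitatory, 3 inhibitory, 3 astrocyte, 3 oligodendrocyte, 2 precursor, 3 microglial and 2 endothelial markers reached 1 TPM (transcript abundance scaled by length and depth) in both libraries. None of 3 serotonergic markers did, while 2 of 3 choroid plexus markers and 1 of 2 leptomeningeal markers did. The choroid plexus gene Ttr had 6.69 and 2.84 TPM in replicates 1 and 2, while Folr1 (0.08 and 0.14 TPM) and the leptomeningeal Lum (0.91 and 0.71 TPM) stayed low. In bulk tissue, fewer cells of a type and less RNA per cell cannot be told apart, and a level here is a sum over cells that may each use different members.

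All members lie on mouse chromosome 18, plus strand, in mm10. The alpha cluster spans 36930184 to 37187661, the beta cluster 37264938 to 37524479, and the gamma cluster 37661793 to 37841873. In the longest protein-coding transcript of each gene, all 14 alpha and all 22 gamma members had 4 exons in the GENCODE M21 annotation, and all 22 beta members had 1. The alpha members shared 3 exons exactly, the last of them from 37184946 to 37187657. The gamma members shared 2 exons exactly and the start of their last exon at 37839903, which ended at 37841873 in 17 of the 22. First exons were 2346 to 3028 bases long in the alpha cluster and 2421 to 2961 bases in the gamma cluster. The single beta exons ranged from 2588 to 8695 bases. The name Pcdha11 stands on 2 separate entries of the files. RefSeq names the upstream one, from 37005203 to 37187657 in GENCODE, Pcdha10, and it is called upstream Pcdha11 here.

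Nearly all members were present in the tissue RNA. In the alignment-based gene table, 57 of 58 reached 1 TPM in both libraries, against 58.3% of the 22015 nuclear protein-coding genes. Levels were low for most. Their median was 4.20 and 3.84 TPM in the 2 libraries, a mean of 4.02 ± 0.251 TPM (SD, n = 2), against a median of 15.8 TPM over the 12844 protein-coding genes at 1 TPM or more in both libraries. Levels in both libraries ranked the members alike, with a Spearman correlation of 0.91 over the 58 genes, given as a description across genes of the same libraries. All members together held 36436 counts in replicate 1 and 27882 counts in replicate 2, on average 0.113% of the counts on genes.

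**Figure D1:**
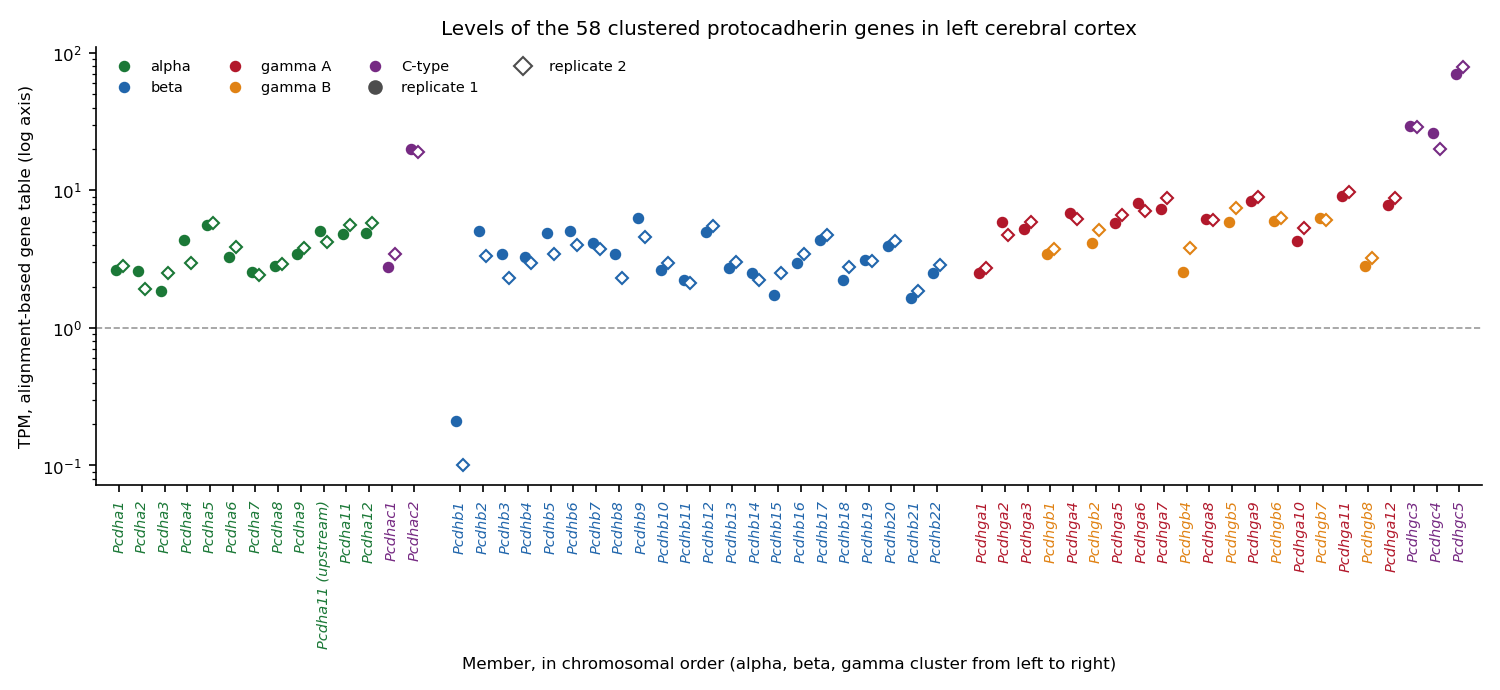
TPM of each member on a log axis in the alignment-based gene table, in chromosomal order within each cluster, with filled circles for replicate 1 and open diamonds for replicate 2; the dashed line marks 1 TPM. Pcdhb1 is the single gene below the line, and 4 of the 5 C-type genes stand above every alternate, with Pcdhgc5 highest at 69.55 and 78.94 TPM.

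In the gene table the C-type genes held the highest levels, with Pcdhac1 as the exception. Together they made up 39.6% ± 0.0178 of the members' summed TPM there (SD, n = 2). This small SD does not cover the difference between the kinds of table. Pcdhgc4 alone held 9.65% ± 2.19 of the gamma cluster's TPM in the gene table and 3.28% ± 0.0730 alignment-free. Pcdhgc5 stood at 69.55 TPM (replicate 1) and 78.94 TPM (replicate 2), a mean of 74.2 ± 6.64 TPM, which placed it at the 94.0th percentile of nuclear protein-coding genes. It alone made up 31.0% ± 1.77 of the gamma cluster's TPM and stood 7.91 times as high as the gamma alternate most abundant in the gene table, Pcdhga11. Both libraries gave this rank, in the alignment-free tables as well as in the gene table.

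Pcdhgc3, a C-type gene with a known part in dendrite growth of cortical neurons, followed at 29.45 and 29.05 TPM in replicates 1 and 2. Pcdhac2, which is required for the even spacing of serotonergic axons, stood at 19.85 and 18.89 TPM. It made up 28.3% ± 2.04 of the alpha cluster's TPM by the alignment-free tables and 29.1% ± 1.17 by the gene table (SD, n = 2). Its mean was above that of every alpha alternate in both, by 1.67-fold over Pcdha11 in the alignment-free tables and by 3.40-fold over Pcdha5 in the gene table. Transcripts that mark serotonergic cell bodies were near 0 in the same libraries: Tph2 had 0.33 and 0.14 TPM, Slc6a4 0 and 0.11 TPM, and Fev 0.05 and 0 TPM. Pcdhac1 did not share the high level of the other C-type genes. It had 2.75 and 3.47 TPM and lay within the range of the alpha alternates.

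Pcdhgc4, a member known for its part in the survival of interneurons, had 10.2 and 10.8 TPM by the alignment-free tables, against 26.16 and 19.82 TPM by the gene table. Of the alignment-free values, 9.16 and 8.78 TPM lay on the full-length Pcdhgc4-201 of 5024 bases. The alignment-based tables gave that transcript 5.15 and 4.10 TPM and placed 967 and 476 counts (19.74 and 12.98 TPM) on Pcdhgc4-203, a transcript of 2272 bases that had 0 counts in both alignment-free tables. The retained-intron form Pcdhgc4-202 had 1.04 and 1.98 TPM alignment-free and 1.27 and 2.74 TPM alignment-based. By the alignment-free values Pcdhgc4 was below several alternates in both libraries. Among them were Pcdhga11 (12.9 and 13.9 TPM), Pcdhga9 (12.7 and 13.9 TPM) and Pcdhga12 (13.1 and 14.8 TPM). By the gene table Pcdhgc4 exceeded every alternate.

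The alternates of the gamma cluster were the more abundant ones. The 12 gamma A genes had a median of 6.47 ± 0.0247 TPM and the 7 gamma B genes 4.63 ± 0.728 TPM (SD, n = 2 each). The 12 alpha alternates had a median of 3.37 ± 0.0247 TPM and the 22 beta genes 3.09 ± 0.159 TPM. Within gamma A the most abundant were Pcdhga11 (9.11 and 9.66 TPM in replicates 1 and 2), Pcdhga9 (8.31 and 8.97 TPM) and Pcdhga12 (7.79 and 8.85 TPM). The lowest were Pcdhga1, the first gene of the cluster, at 2.52 and 2.73 TPM, and Pcdhga10 at 4.28 and 5.32 TPM. Each of the 3 high genes exceeded both low ones in both libraries, whereas the values of Pcdhga9 and Pcdhga12 overlapped.

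Gamma B was led by Pcdhgb5 (5.84 and 7.45 TPM), Pcdhgb7 (6.27 and 6.09 TPM) and Pcdhgb6 (6.02 and 6.28 TPM), whose values overlapped. Its lowest genes were Pcdhgb8 (2.82 and 3.24 TPM) and Pcdhgb4 (2.56 and 3.81 TPM). Both carry reads on transcripts not annotated as coding, as do Pcdhgb1, Pcdhgb2 and the leading Pcdhgb5. Pcdhgb8 is annotated as a polymorphic pseudogene with 1 protein-coding transcript, the transcript Pcdhgb8-202. The alignment-free tables gave Pcdhgb8-202 2.01 TPM in replicate 1 and 1.16e-08 TPM in replicate 2. In the gene table it stood at 0 TPM in both libraries, and all reads of the gene sat on the pseudogene transcript Pcdhgb8-201. For Pcdhgb4, the coding transcript Pcdhgb4-202 had 1.26 and 1.23 TPM alignment-free and 1.12 and 1.87 TPM alignment-based.

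The order of the alpha alternates differed between the kinds of table. By the alignment-free tables Pcdha11 was highest, at 25.7 and 9.89 TPM, above Pcdha5 at 7.83 and 8.51 TPM. In the gene table Pcdha5 was highest at 5.60 and 5.79 TPM, followed by Pcdha12 at 4.86 and 5.76 TPM and Pcdha11 at 4.80 and 5.57 TPM. With its coding transcripts alone Pcdha11 had 1.09 and 0.40 TPM in the gene table, the lowest mean of the alpha alternates there. By the alignment-free tables its coding transcripts had 20.4 and 2.35 TPM. That was above every other alpha alternate in replicate 1 but below Pcdha5 in replicate 2. Over all transcripts the lowest in the gene table were Pcdha3 (1.84 and 2.51 TPM) and Pcdha2 (2.59 and 1.92 TPM), which changed places between the libraries.

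The beta genes, which lack a common tail, were led by Pcdhb9 (6.29 and 4.58 TPM), Pcdhb12 (4.97 and 5.52 TPM) and Pcdhb17 (4.35 and 4.77 TPM). Pcdhb21 was low at 1.66 and 1.85 TPM, but Pcdhb1 stood apart from the whole family. It had 12 counts in replicate 1 and 4 counts in replicate 2, or 0.21 and 0.10 TPM, and all of its sequence windows were unique to it, and its expected counts were whole numbers. Without Pcdhb1 the beta genes ranged from 1.76 to 5.44 TPM in mean level. No member had 0 counts in either library.

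Position within a cluster went along with level in some arrays. Across the 12 gamma A genes, in chromosomal order towards the constant exons, mean TPM had a Spearman correlation of 0.68 with position in the alignment-free tables and 0.64 in the gene table. The corresponding value over the 12 alpha alternates was 0.74 in the alignment-free tables and 0.62 in the gene table. For the 7 gamma B genes it was 0.11 and 0.04, and for the 22 beta genes -0.04 and -0.20, in the same order of tables. Over all 19 gamma A and gamma B genes, which are interleaved, it was 0.44 and 0.38. These values describe genes measured in the same 2 libraries, and no p-value applies to them. The alpha values take Pcdha11, at position 11 of the 12, over all its transcripts. Its alignment-free level differed between the libraries (25.7 and 9.89 TPM). Its coding transcripts alone had 1.09 and 0.40 TPM in the gene table, the lowest mean of the alpha alternates there, and 20.4 and 2.35 TPM alignment-free. Whether the alpha order holds for coding transcripts alone was not tested.

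Taken by cluster, the gamma genes held most of the message. The gamma cluster summed to 315.6 and 322.7 TPM alignment-free, and to 233.55 and 244.53 TPM in the gene table (replicates 1 and 2). That was 61.2% ± 2.01 and 63.5% ± 1.31 of the 3 clusters. The alpha cluster summed to 112.8 and 98.3 TPM alignment-free, and to 66.37 and 66.86 TPM in the gene table, or 20.2% ± 1.62 and 17.7% ± 0.118 of the total. The beta cluster summed to 99.2 and 94.0 TPM alignment-free, and to 73.39 and 68.25 TPM in the gene table, or 18.5% ± 0.387 and 18.8% ± 1.19. The alpha and beta sums lay close together, with alpha the higher in the alignment-free tables and beta the higher in the gene table. Without Pcdha11, described below, the alignment-free alpha sum was 87.1 and 88.4 TPM, below beta.

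The cluster sums bear on a property of this family that affects any single member's value. The share of 100-base windows of a gene's protein-coding transcripts that occur in no other gene was 92.3% to 100% in beta genes, with a median of 99.8%. The median was 43.8% for the alpha alternates, 56.2% for gamma A, 54.0% for gamma B and 55.9% for the C-type genes. In these clusters the constant exons are common to every member. Pcdha4 was the extreme, with 5.07% of its windows unique and 42.3% occurring also in Gm42416, an annotated read-through entry with exons in both the alpha and the gamma cluster.

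The deposited spread of each assigned count was low in the beta genes. The posterior standard deviation of the count, as a percentage of its mean, was at most 1.40% in any beta gene in either library. Its median was 5.42% in the alpha alternates, 3.56% in gamma A, 5.51% in gamma B and 1.75% in the C-type genes. Among these, Pcdhgc5 had 0.997% and 1.08% in replicates 1 and 2, within the beta range, although 58.1% of its windows were unique. It also held the most counts of any member, 6593 and 5513. Pcdhga1, with 61.6% of its windows unique but 240 and 187 counts, had 6.61% and 7.71%. These percentages were not adjusted for the number of counts. The highest were 19.2% for Pcdha4 and 10.5% for Pcdhgc4, both in replicate 2, against 6.25% and 7.13% in replicate 1. The deposited TPM interval of Pcdha4 ran from 3.57 to 4.82 in replicate 1 and from 2.03 to 4.45 in replicate 2. That of Pcdhgc5 ran from 64.7 to 71.3 in replicate 1 and from 72.4 to 80.5 in replicate 2. The level of these intervals is not given in the sources used here.

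**Figure D2:**
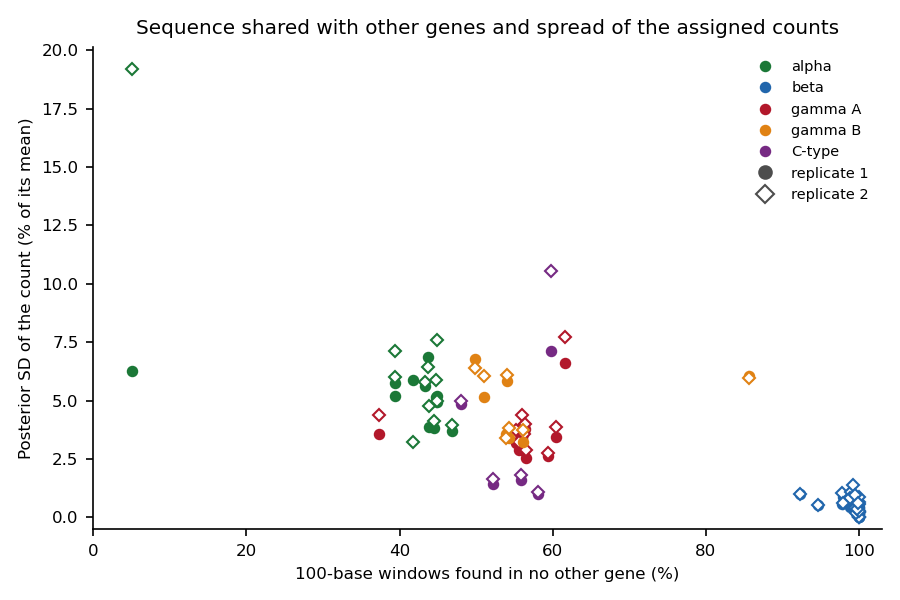
Posterior standard deviation of each member's count (percent of its mean) against the percentage of its 100-base windows found in no other gene, with filled circles for replicate 1 and open diamonds for replicate 2. The beta genes lie at the lower right, at 1.40% or below, and the 19.2% of Pcdha4 in replicate 2 lies at the upper left. Pcdhgb8, with 85.6% unique windows, has 6.04% and 5.99% in replicates 1 and 2. Its windows come from the coding Pcdhgb8-202 of 2796 bases, while its gene-table counts lie on the 4615-base Pcdhgb8-201.

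Counts assigned to a whole cluster differed far less between the kinds of table than TPM did. Summed counts in the alignment-free tables were 1.05 times those of the alignment-based table for the alpha cluster, 1.01 times for beta and 1.02 times for gamma. Summed TPM in the alignment-free tables was 1.58 times as high for alpha, 1.36 times for beta and 1.34 times for gamma. A shift of this kind was general. Over 13033 protein-coding genes at 1 TPM or more in both kinds of table, alignment-free TPM was higher by a median of 0.69 on the log2 scale, and the ratios below are given relative to that median.

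**Figure D3:**
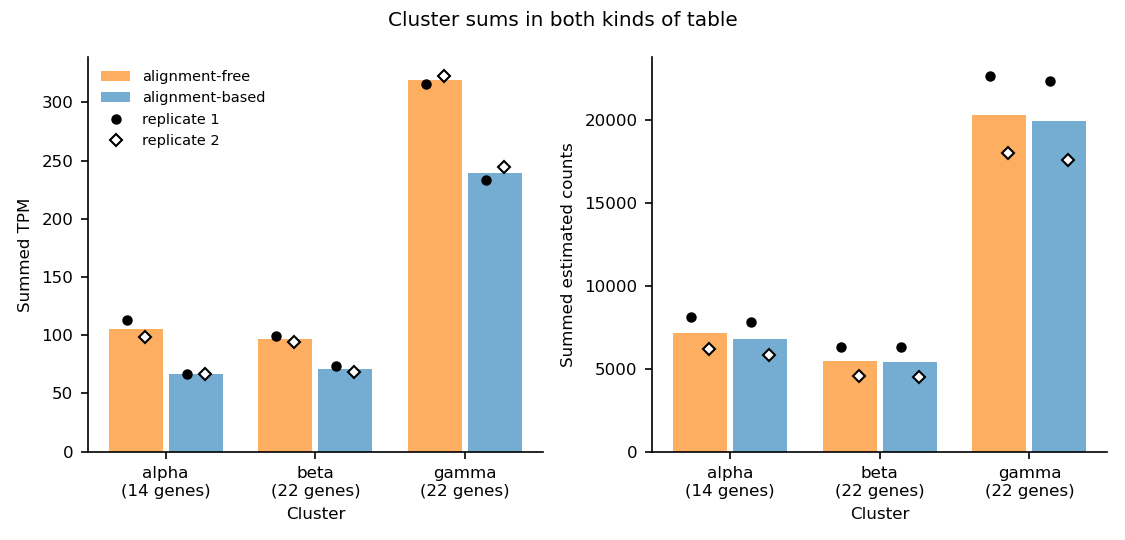
Summed TPM (left) and summed estimated counts (right) of each cluster, with bars for the mean of both libraries in the alignment-free tables (orange) and the alignment-based gene table (blue), filled circles for replicate 1 and open diamonds for replicate 2. Count sums are nearly equal between the kinds of table, while TPM sums are 1.34 to 1.58 times as high in the alignment-free tables.

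Relative to the shift, 3 of 57 members (5.26%) differed by more than 2-fold between the kinds of table, near the 4.38% of all 14109 genes compared. One was higher in the alignment-free tables, against 3.59% of all genes, and 2 were lower, against 0.787%. The members' median was -0.18 on the log2 scale, that is slightly lower in the alignment-free tables, against 0.01 for all genes. All 3 were alpha or C-type genes, and none of the 21 beta genes compared or the 19 gamma A and gamma B genes passed 2-fold. With a total this near the background share, so few calls do not show a difference between subfamilies. Alignment-free and alignment-based levels were correlated across the 58 members (Spearman 0.96, across genes), though less so within the alpha alternates (0.73) than within beta (0.94) or gamma A (0.97).

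Pcdha11 was higher in the alignment-free tables, by 1.07 on the log2 scale relative to the shift. It had 25.7 and 9.89 TPM alignment-free in replicates 1 and 2, and 4.80 and 5.57 TPM alignment-based. In replicate 1 the short coding transcript Pcdha11-204, of 625 bases, carried 18.8 TPM from 93.0 alignment-free counts. In replicate 2 it carried 2.35 TPM from 8.71 counts, and without replicate 1 the gene was only 0.12 higher. Most gene-table counts of Pcdha11 were on 2 retained-intron transcripts, Pcdha11-205 (127 and 154 counts) and Pcdha11-206 (174 and 155 counts). Its coding transcripts alone summed to 1.09 and 0.40 TPM in the gene table and to 20.4 and 2.35 TPM alignment-free.

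Pcdhgc4 was lower in the alignment-free tables, at -1.81 on the log2 scale relative to the shift, with the difference between transcripts given above. Pcdha4 was just past 2-fold lower, at -1.01, with 3.70 and 2.09 TPM alignment-free and 4.36 and 2.95 TPM alignment-based. It was at -1.18 without replicate 1 and at -0.90 without replicate 2. Its overlapping entry Gm42416 took 122 and 127 counts in the alignment-free tables, against 0 and 60.6 counts in the gene table. The next members on the low side were Pcdhb6 (-0.66), Pcdhb2 (-0.49) and Pcdhb5 (-0.38). On the high side, after Pcdha11, they were Pcdhga12 (0.06), Pcdha3 (0.01), Pcdhb22 (-0.01) and Pcdhgb1 (-0.01), all close to the median of protein-coding genes.

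**Figure D4:**
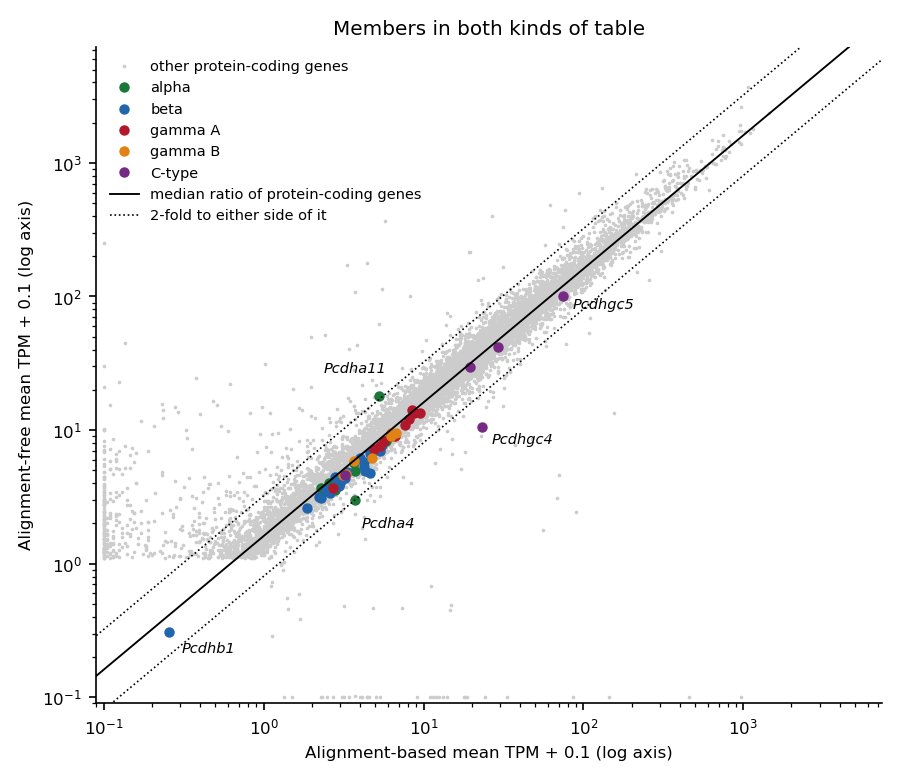
Mean TPM plus 0.1 in the alignment-free tables (vertical, log axis) against the alignment-based gene table (horizontal, log axis), with members coloured by subfamily and other protein-coding genes in grey; the solid line is the median ratio and the dotted lines lie 2-fold to either side. Pcdha11 lies above the band and Pcdhgc4 and Pcdha4 below it, at 1.07, -1.81 and -1.01 on the log2 scale relative to the median; Pcdhb1 is shown but was too low to be compared.

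Besides the members, 22 other annotated entries had exons within the cluster spans, and 9 of them reached 1 TPM in a library. The largest gap between the kinds of table belonged to Gm38182, a processed transcript in the constant region of the gamma cluster. It had 59.4 and 56.3 TPM in the alignment-free tables, from 420 and 304 counts, and 1.01 and 1.85 TPM in the gene table, from 20.0 and 23.7 counts. The read-through entries Gm42416 and Gm37013, which run from the alpha to the gamma cluster, were at 0 counts in replicate 1 of the gene table and at 1.30 and 1.83 TPM in replicate 2. The pseudogenes Gm36858 (1.25 and 2.65 TPM), Gm18150 (1.62 and 2.71 TPM), Gm19035 (0.91 and 2.36 TPM) and Gm20162 (1.09 and 1.69 TPM) were each higher in replicate 2. Below 1 TPM, the pseudogene Gm18529 in the beta cluster went the other way, with 20 and 4 counts (0.77 and 0.20 TPM). On the opposite strand Gm38225 had 0.91 and 1.31 TPM and Gm26672 1.42 and 1.09 TPM. Together the 12 opposite-strand entries held 124 and 106 counts, few beside the 36436 and 27882 counts of the members. The sources do not state whether counting used strand, so reads of a member and of an antisense entry that overlaps it cannot be told apart.

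Of the 57 members that averaged at least 10 counts, 0 were over 2-fold apart between the libraries after edgeR's TMM scaling, against 5.46% of all 18246 genes compared. Every member compared had a mean above 100 counts, and among the 11539 genes in the same range of counts 0.988% were past 2-fold, so the members' share lay near that background. The interquartile range of the members' log2 ratios ran from -0.14 to 0.16, against -0.11 to 0.14 for those genes. The members' median log2 ratio of replicate 1 over replicate 2 was -0.04, against 0.00 for all genes. It was 0.07 for C-type, -0.01 for alpha alternates, 0.05 for beta, -0.04 for gamma A and -0.16 for gamma B genes.

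The widest differences were in both directions. Pcdhb3 had 289 counts in replicate 1 and 143 in replicate 2, a log2 ratio of 0.63, and Pcdhb2 had 271 and 136 counts, a ratio of 0.61. Pcdha4 followed at 0.54, from 477 and 251 counts. In alignment-free counts (286 and 118) Pcdha4 was at 0.96, still short of 2-fold. At the other end Pcdhgb4 had 232 and 261 counts in replicates 1 and 2, a log2 ratio of -0.54. It was followed by Pcdhb15 (106 and 115 counts, -0.49) and Pcdha3 (217 and 222 counts, -0.41). For Pcdha4 the difference was smaller with the read-through entry included. Gene-table counts summed over Pcdha4 and Gm42416 were 477 and 311, or 14.7 and 12.6 CPM, a log2 ratio of 0.23. Their alignment-free counts summed to 408 and 245.

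**Figure D5:**
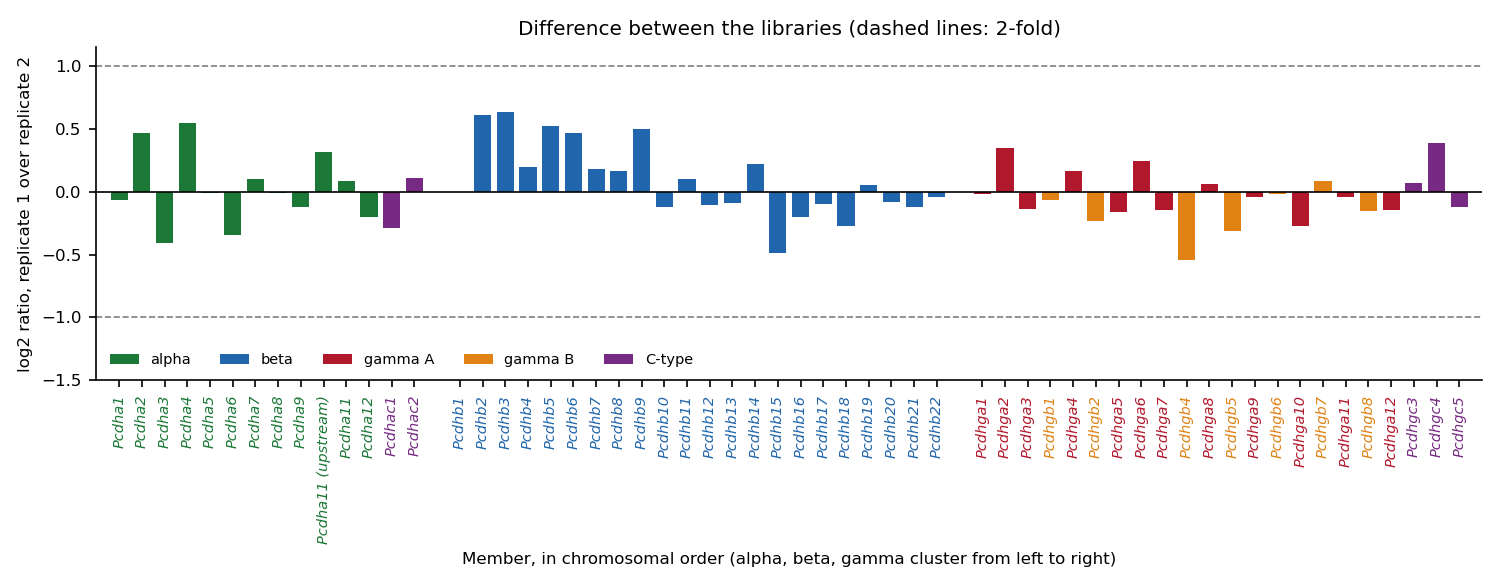
Log2 ratio of replicate 1 over replicate 2 for each member with a mean of 10 counts or more, in chromosomal order and coloured by subfamily; dashed lines mark 2-fold and Pcdhb1 has no bar. No member shown reaches 2-fold, and the 8 bars from Pcdhb2 to Pcdhb9 all point upwards, from 0.16 to 0.63.

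The beta genes differed by place in the array, a pattern picked out after the values were seen. All 8 genes from Pcdhb2 to Pcdhb9 were higher in replicate 1, by 0.16 to 0.63 on the log2 scale, and together they held 74.9 CPM in replicate 1 and 56.1 CPM in replicate 2. Of the 13 genes from Pcdhb10 to Pcdhb22, 3 were higher in replicate 1 and 10 lower, and together they held 120 and 126 CPM. The alignment-free tables gave the first run 45.6 and 35.7 TPM and the second 53.2 and 58.2 TPM. Some cell type markers were also higher in replicate 1 by counts. All 3 inhibitory neuron markers (summed 282 and 238 TPM in replicates 1 and 2), all 3 oligodendrocyte markers (222 and 201 TPM), all 3 microglial markers (55.1 and 50.5 TPM) and both endothelial markers (30.7 and 21.3 TPM) had a positive log2 ratio of counts. For the microglial Csf1r the sign turned in gene-table TPM, at 26.51 and 28.95 TPM, against a log2 ratio of counts of 0.25. The 2 precursor markers were lower (18.3 and 19.9 TPM), and the 4 general neuronal markers (2310 and 2228 TPM), 3 excitatory markers (1695 and 1759 TPM) and 3 astrocyte markers (166 and 168 TPM) had ratios of both signs. Their part in the beta values was not tested, and with 1 library on each side these values describe these libraries only.

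Genes that act on the clusters or with their proteins gave the surrounding levels. The 19 chromatin regulators of the clusters had a median of 23.0 ± 0.467 TPM, and 18 reached 1 TPM in both libraries. Highest was Trim28, a corepressor (88.07 and 101.54 TPM), and the DNA methyltransferase gene Dnmt3a had 37.03 and 49.84 TPM. Dnmt3b, known for methylating the promoters of this family during development in the mouse, was the exception at 0.20 and 0.31 TPM. Ctcf, whose protein joins the promoters to their distant enhancers together with cohesin, stood at 29.21 and 30.55 TPM. Ctcf was picked for mention after its value was seen.

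The 21 genes for processing and intracellular partners had a median of 55.7 ± 0.969 TPM, and all reached 1 TPM in both libraries. They were led by Cyfip2 (264.15 and 270.13 TPM) and Nckap1 (176.47 and 168.05 TPM), parts of the WAVE complex that acts on actin, and by Ptk2b (174.65 and 176.83 TPM), a kinase that binds the common tails. No gene of either list was over 2-fold apart between the libraries, against 5.46% of all genes compared and 0.988% in the members' range of counts. Most genes of both lists averaged above 100 counts, so the absence of calls lay near the second share.

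Other protocadherins, encoded outside the clusters by single genes, were more abundant as a group. The clustered members' median of 4.02 ± 0.251 TPM stood beside 13.6 ± 1.98 TPM for 12 such genes, of which 11 reached 1 TPM in both libraries. Pcdh1 (112.89 and 134.38 TPM), Pcdh9 (72.41 and 82.46 TPM) and Pcdh10 (76.16 and 75.66 TPM) led, and the endothelial Pcdh12 was at 0.16 and 0.10 TPM. Pcdhgc5 was thus at about the level of Pcdh9 and Pcdh10, while each alternate lay below 10 TPM in the gene table. The large cadherins of the Celsr, Fat and Dchs families had a median of 4.55 ± 0.255 TPM, with 8 of 9 at 1 TPM or more in both libraries. They were led by Celsr2 (66.27 and 75.33 TPM), Fat3 (31.77 and 32.75 TPM) and Celsr3 (23.94 and 37.86 TPM), and Fat2 was at 0.12 and 0.11 TPM.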

How the data were processed

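Gene and transcript tables of 2 total RNA-seq libraries were analysed. Per the text deposited with each library, values refer to mm10 and GENCODE M21. One kind of table derives from a transcriptome alignment (alignment-based) and the other from the reads and an index (alignment-free). Which aligner and quantifiers were run is not given in the sources used here. The deposited values are, per the file headers, expected counts (alignment-based) or estimated counts (alignment-free), TPM over all entries, posterior mean TPM, and the posterior standard deviation and interval of each gene. The mm10 reference represents the C57BL/6J parent, and the effect of CAST/EiJ variants was not analysed here.

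Gene identifiers were matched to GENCODE M21 coordinates, and alignment-free values were summed to genes. Deposited TPM was averaged over both libraries, with its SD (n = 2). For the ratio between libraries, expected counts were rounded, genes averaging at least 10 counts kept, and log2 CPM taken with edgeR 4.0.16 (TMM, prior count 2, R 4.3.3). The ratio between kinds of table is log2 of mean TPM plus 0.1, less the median over protein-coding genes, for genes at 1 TPM or more in either kind. A difference past 2-fold is called. With 1 library on each side no p-value is given. The ratio step was tested on simulated counts. Sequence sharing was counted on 100-base windows of annotated protein-coding transcripts. Alternatives used DESeq2 1.42.0 size factors, library size alone, other filters, prior counts, pseudocounts, thresholds, TPM estimates and denominators, and coding transcripts alone.

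The members and the gene lists were chosen with earlier results of these data known. The text names all C-type genes, the 3 highest and 2 lowest alternates of each subfamily, the 3 members at each end of the ratio between libraries, the 5 at each end of the ratio between kinds of table, the 3 highest and any gene below 1 TPM of each other list, and other annotated entries in the clusters at 1 TPM or more. One gene that this rule names is not reported here.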

Additional observations from a re-analysis of the deposited data

How the results depend on the processing

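No paired analysis was possible because the libraries form 1 group with no contrast. The count of members at 1 TPM or more ranged from 53 (threshold of 2 TPM) to 57 and was 55 with coding transcripts alone. Median TPM over all members was 5.71 alignment-free, 8.47 rescaled over protein-coding and long noncoding genes, and 3.71 for coding transcripts alone. Alignment-free medians were 4.40 (alpha), 4.25 (beta), 9.26 (gamma A), 6.13 (gamma B) and 29.7 TPM (C-type). Rescaled medians were 7.10, 6.50, 13.6, 9.75 and 48.4 TPM in the same order. Coding transcripts alone gave 2.93 (alpha) and 3.33 TPM (gamma B), and posterior mean TPM gave 6.42 for gamma A. Cluster sums for alpha, beta and gamma were 105.5, 96.6 and 319.2 TPM alignment-free and 140.2, 149.1 and 503.0 TPM rescaled. Coding transcripts alone gave 61.6 (alpha) and 223.0 TPM (gamma). Posterior mean TPM gave 65.1 TPM for alpha, and adding overlapping same-strand entries gave 74.2 TPM. The alpha share was 20.2% alignment-free, 17.3% for coding transcripts and 19.0% with overlapping entries, and the gamma share was 61.2% alignment-free. Read-through entries were counted in both clusters they join.

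Without 1 or the other replicate, subfamily medians ranged from 3.36 to 3.39 (alpha), 2.98 to 3.20 (beta), 6.45 to 6.48 (gamma A), 4.12 to 5.15 (gamma B) and 19.8 to 26.2 TPM (C-type), and shares from 17.6% to 17.8% (alpha), 18.0% to 19.7% (beta) and 62.6% to 64.4% (gamma). Single members' mean TPM moved by more than their SD for 54 of 58 alignment-free, 58 rescaled, 8 by posterior mean and 8 for coding transcripts. None of the 57 members compared was over 2-fold apart between the libraries under the 6 alternatives tried. Over all genes the share past 2-fold ran from 1.09% (mean of 100 counts or more) to 7.43% (alignment-free counts). Every member compared averaged above 100 counts, so the 1.09% is the nearer background. Pcdhb1 entered with no filter alone, at a log2 ratio of 0.95 with a prior count of 2, while its 0.21 and 0.10 TPM are 2.10-fold apart. The members' median log2 ratio was -0.0039 with no filter, -0.065 at a mean of 100 counts or more and 0.050 in alignment-free counts, which turned its sign. Between the kinds of table, Pcdhgc4 was past 2-fold in every alternative tried. In the main setting 4.38% of all genes were past 2-fold, and that share is not given here for the alternatives. The count of members was 1 with a pseudocount of 1 TPM and 5 with coding transcripts alone, which added Pcdhgb1 (lower) and Pcdhgb8 (higher). It was 2 without either replicate: Pcdha11 did not pass without replicate 1, nor Pcdha4 without replicate 2 (-0.90). With no shift taken out it was 2, without Pcdha4. The cause was not tested. Precision is limited by 2 libraries and, for alpha and gamma genes, by reads that match several members.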
